A study of Mus musculus with 8 samples.

Results

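The genes of glucose breakdown and of the response to low oxygen were followed through the mouse lens capsule after injury. Members were chosen by name, as 33 mouse symbols covering glucose and lactate transport, the steps of glycolysis, the hypoxia-inducible factors (HIFs) and their hydroxylases, and genes that HIFs switch on. The symbols matched 34 of the 54532 gene identifiers in the count table, because Aldoa has a further identifier with few reads, and all 34 were among the 15857 identifiers with enough counts to test. RNA-seq had been run on lens capsules of wild-type C57BL/6 mice aged 6 to 8 weeks, taken 7 days after surgery. In the 4 ASC libraries, from the injury-induced model that the submitters present as fibrotic cataract, a 26-gauge needle had opened the centre of the anterior lens capsule by way of the cornea. In the 4 sham libraries the cornea had been cut and the capsule left whole. The replicates are described as biological, but the number of mice or capsules behind each library is not stated, so p-values measure the spread between these libraries.

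Glycolysis splits glucose into pyruvate in the cytosol and yields ATP without oxygen, and lactate dehydrogenase turns the pyruvate into lactate. The lens has no blood vessels and lies in a fluid of low oxygen, and it is known for taking much of its energy from glycolysis. HIF pairs an oxygen-labile alpha subunit with the stable partner ARNT. With oxygen present, prolyl hydroxylases mark the alpha subunit for destruction, and when oxygen falls the pair binds DNA and raises transcription of glucose transporters, glycolytic enzymes, VEGF and others. This control acts mostly on the alpha subunit protein, which RNA-seq does not measure.

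On day 7 after surgery edgeR called none of the 34 identifiers as different between injured and sham capsules. None passed an adjusted p of 0.05 in edgeR's quasi-likelihood test with Benjamini-Hochberg adjustment: 0 of 34 were called in either direction, beside 1.02% of all tested genes. By direction, 0 were called higher in ASC, beside 0.631% of all tested genes, and 0 lower, beside 0.391%. Unadjusted p-values under 0.05 were reached by 2 of 34 (5.88%, against 14.7% of all tested genes), namely Aldoa and Gapdh. Those 2 were also the members whose ASC and sham libraries did not overlap (5.88%, against 9.06%), Aldoa with ASC above sham and Gapdh with ASC below sham. DESeq2 called 1 member, Gapdh, beside 593 of all 15857 tested genes. Limma-voom with sample quality weights called 0 members, beside 173 of all tested genes.

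The spread between libraries allowed only modest changes for most of the genes. The median log2 fold change of ASC over sham was 0.071 over the 34 identifiers and 0.008 over all tested genes, and the median size of a change, sign aside, was 0.11 for the members and 0.18 for all tested genes. Fold changes were positive for 21 members and negative for 13. The whole 95% confidence interval lay within a 1.5-fold change in either direction for 25 of 34 members (73.5%, against 51.3% of all tested genes), and within a 2-fold change for 28 (82.4%, against 72.2%). All tested genes were not matched to the members by level. Of the 33 symbols, 16 averaged at or above 100 CPM and 2 under 10 CPM. The median SE was 0.12 for the members and 0.16 for all tested genes, so these shares do not show that members were steadier than genes read alike. The members outside the 1.5-fold range were Slc16a1, Hk1, the little-read Aldoa identifier, Gapdh, Ldhb, Epas1, Car9, Ankrd37 and Ndrg1. Because each library is a bulk sample, fewer cells of a type and less RNA per cell cannot be told apart.

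**Figure D1:**
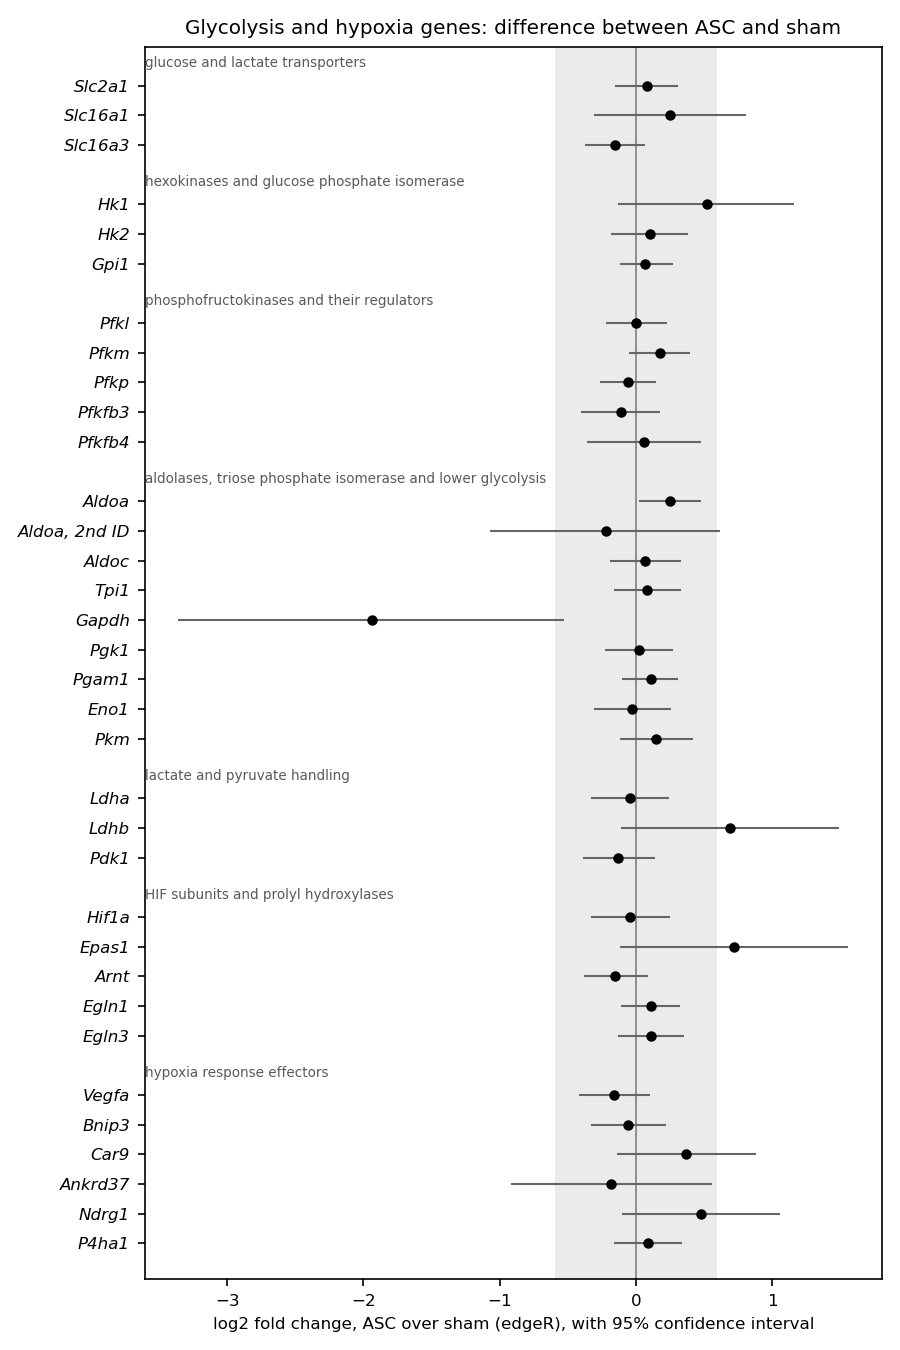
Log2 fold change of ASC over sham for each of the 34 identifiers, grouped by role, with the 95% confidence interval from edgeR; the grey band spans a 1.5-fold change in either direction. Points of 25 genes carry intervals that stay inside the band, and only Aldoa and Gapdh have intervals that leave out 0.

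The libraries held 14420494 to 21141582 counts. Markers of the lens epithelium, the cell layer a capsule carries, were all read (8 of 8 tested), and their summed level was 1651 to 1917 CPM (counts per 1000000 counts of the scaled library) in ASC and 1744 to 1930 CPM in sham, with Mab21l1 called lower in ASC. Lens fibre markers, the crystallins among them, summed to 230072 to 367944 CPM in ASC and 200271 to 326692 CPM in sham, with 15 of 16 log2 fold changes positive and 2 called higher in ASC by edgeR, the gamma crystallins Cryga (log2 fold change 3.65, adjusted p = 0.0243) and Cryge (3.46, adjusted p = 0.0254). With a library left out, the edgeR adjusted p reached 0.0835 for Cryga and 0.0883 for Cryge. DESeq2, which called 593 of all 15857 tested genes, called 6 fibre markers higher, and limma-voom called 0. Red cell markers were higher in every ASC library, at 76.3 to 373 CPM against 41.6 to 64.7 CPM in sham, with 6 of 8 markers tested and 0 called by edgeR or limma-voom. DESeq2 called 4 of them higher in ASC: Alas2, Hba-a1, Hbb-bs and Hbb-bt. Retinal markers (9 of 9 tested) summed to 2200 to 4207 CPM in ASC and 1221 to 4673 CPM in sham, and pigment cell markers (8 of 8) to 203 to 714 CPM in ASC and 91.7 to 264 CPM in sham. EdgeR and limma-voom called 0 markers of either list, and DESeq2 called 4 pigment cell markers higher in ASC and 0 retinal markers. Macrophage and leukocyte markers, 13 of 15 tested, summed to 62.3 to 234 CPM in ASC and 34.5 to 106 CPM in sham. Gpnmb gave the largest part of this sum, with means of 102 CPM in ASC and 24.1 CPM in sham. DESeq2 called Gpnmb higher in ASC, and edgeR and limma-voom did not. Ptprc averaged 1.35 CPM in ASC and 0.612 CPM in sham. Endothelial and pericyte markers, 7 of 10 tested, summed to 134 to 156 CPM in ASC and 139 to 184 CPM in sham. Most of that was Pdgfrb, with means of 101 CPM in ASC and 122 CPM in sham, while Pecam1 averaged 0.724 and 0.645 CPM. Neutrophil markers summed to 1.68 to 3.44 CPM in ASC and 0.447 to 1.36 CPM in sham, with 2 of 7 tested and Ly6g and Cxcr2 at 0 in every library. Corneal markers, 6 of 9 tested, summed to 363 to 967 CPM in ASC and 397 to 611 CPM in sham. Of these, edgeR called the corneal keratins Krt5 (adjusted p = 0.0387) and Krt12 (adjusted p = 0.0395) higher in ASC, both from few reads. Krt5 had 4.02 to 16.7 CPM in ASC and 0.447 to 1.73 CPM in sham. Krt12 had 2.93 to 6.31 CPM in ASC and 0 to 0.983 CPM in sham. With a library left out, the edgeR adjusted p reached 0.135 for Krt5 and 0.13 for Krt12. DESeq2 called both, and limma-voom called Krt12 but not Krt5. Most of the corneal sum was Aldh3a1, with means of 592 CPM in ASC and 483 CPM in sham. Sums carried by a single gene do not by themselves show the named cell types.

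Glucose enters cells through transporters, and lactate leaves through monocarboxylate transporters. Slc2a1, which encodes GLUT1, the main glucose transporter of the lens epithelium, was read at 828, 851, 818 and 792 CPM in ASC 1 to 4 and at 798, 834, 779 and 707 CPM in sham 1 to 4. The groups overlapped, and the log2 fold change was 0.08 (SE 0.10, 95% interval -0.15 to 0.31, edgeR adjusted p = 0.786). Slc16a3, encoding the lactate exporter MCT4, averaged 54.5 ± 6.25 CPM in ASC and 60.6 ± 4.44 CPM in sham (SD, n = 4 each; log2 fold change -0.15, edgeR adjusted p = 0.523). Slc16a1, encoding the broadly expressed MCT1, had 27.3, 30.4, 33.3 and 45.0 CPM in ASC 1 to 4 and 19.3, 30.6, 40.7 and 23.2 CPM in sham 1 to 4. Its sham libraries spanned wider than the gap between the groups (log2 fold change 0.25, SE 0.25, edgeR adjusted p = 0.702). MCT1 made up 37.8% ± 7.4 of the summed per-kilobase level of both exporters in ASC and 31.2% ± 8.55 in sham. Levels per kilobase divide CPM by the length of the longest protein-coding transcript of each gene, and they are used where the levels of members are ranked or shared out.

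Hexokinases trap glucose in the cell by phosphorylating it, and glucose phosphate isomerase passes the product on. Hk1, the constitutive hexokinase, was read at 61.8, 105, 76.4 and 115 CPM in ASC 1 to 4 and at 53.9, 57.1, 94.2 and 45.2 CPM in sham 1 to 4. ASC 2 and ASC 4 were the high libraries of one group and sham 3 of the other, and the groups overlapped (log2 fold change 0.52, SE 0.28, 95% interval -0.13 to 1.16, edgeR adjusted p = 0.442). Hk2, the insulin- and hypoxia-responsive hexokinase, had 76.7, 82.5, 94.0 and 110 CPM in ASC and 76.6, 77.8, 102 and 82.7 CPM in sham (log2 fold change 0.10, edgeR adjusted p = 0.781). The 2 hexokinases were close to equal per kilobase: Hk1 held 55.4% ± 5.42 of their sum in ASC and 48.0% ± 5.35 in sham. Gpi1 was among the steadiest members, at 221, 261, 230 and 231 CPM in ASC and 230, 225, 226 and 215 CPM in sham (log2 fold change 0.07, SE 0.09, edgeR adjusted p = 0.758).

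Phosphofructokinase commits the sugar to glycolysis, and the PFKFB enzymes set the level of its activator fructose 2,6-bisphosphate. All 5 genes of this step had intervals inside a 1.5-fold change (100%, against 51.3% of all tested genes). The liver-type subunit Pfkl was at 177, 200, 152 and 158 CPM in ASC and at 170, 181, 164 and 171 CPM in sham, a log2 fold change of 0.00 with a 95% interval of -0.22 to 0.23. The platelet-type subunit Pfkp had 187, 182, 203 and 213 CPM in ASC and 197, 196, 223 and 199 CPM in sham. Sham 3 stood above the other 3 sham libraries, and the log2 fold change was -0.06 (edgeR adjusted p = 0.833). The muscle-type subunit Pfkm was the least abundant of the subunits, with 39.5, 47.0, 41.1 and 48.0 CPM in ASC and 40.5, 41.5, 39.7 and 33.6 CPM in sham (log2 fold change 0.18, edgeR adjusted p = 0.453). Per kilobase, Pfkl made 42.3% ± 4.21, Pfkm 14% ± 0.918 and Pfkp 43.7% ± 3.97 of the subunit transcripts in ASC. The sham shares were 42.3% ± 2.11 for Pfkl, 12.4% ± 0.967 for Pfkm and 45.3% ± 2.33 for Pfkp, so the mix of subunits overlapped between the groups.

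Of the PFKFB genes, the hypoxia-inducible Pfkfb3 had 97.1, 79.7, 76.7 and 56.7 CPM in ASC and 86.8, 85.4, 79.2 and 83.0 CPM in sham. ASC libraries lay on both sides of the narrow sham range (log2 fold change -0.11, SE 0.13, edgeR adjusted p = 0.762). Pfkfb4, another HIF target of this family, was read at 4.02 to 4.98 CPM in ASC and 3.80 to 5.23 CPM in sham (log2 fold change 0.06, SE 0.19, edgeR adjusted p = 0.923). It supplied 7.92% ± 2.01 of the summed per-kilobase level of both PFKFB genes in ASC and 6.84% ± 1.06 in sham.

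Several enzymes from aldolase to pyruvate kinase had the highest levels among the members. Per kilobase, enolase 1 (Eno1) averaged 671 ± 37.3 CPM in ASC and 683 ± 96.2 CPM in sham, and the pyruvate kinase Pkm 653 ± 54.0 CPM in ASC and 589 ± 54.6 CPM in sham. Aldoa followed at 534 ± 41.9 CPM per kilobase in ASC and 450 ± 10.5 in sham, and Aldoc at 482 ± 26.1 in ASC and 460 ± 43.8 in sham. Neighbours in this order, Eno1 and Pkm or Aldoa and Aldoc, differed by less than the larger of their SDs in at least 1 of the 2 groups. Ldha came next at 335 ± 36.0 CPM per kilobase in ASC and 346 ± 49.1 in sham, then Slc2a1 at 252 ± 7.56 in ASC and 239 ± 16.4 in sham. Tpi1, with 229 ± 21 in ASC and 216 ± 23.8 in sham, and Pgk1, with 213 ± 19.7 in ASC and 210 ± 23.9 in sham, were not separated from each other by their spread.

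**Figure D2:**
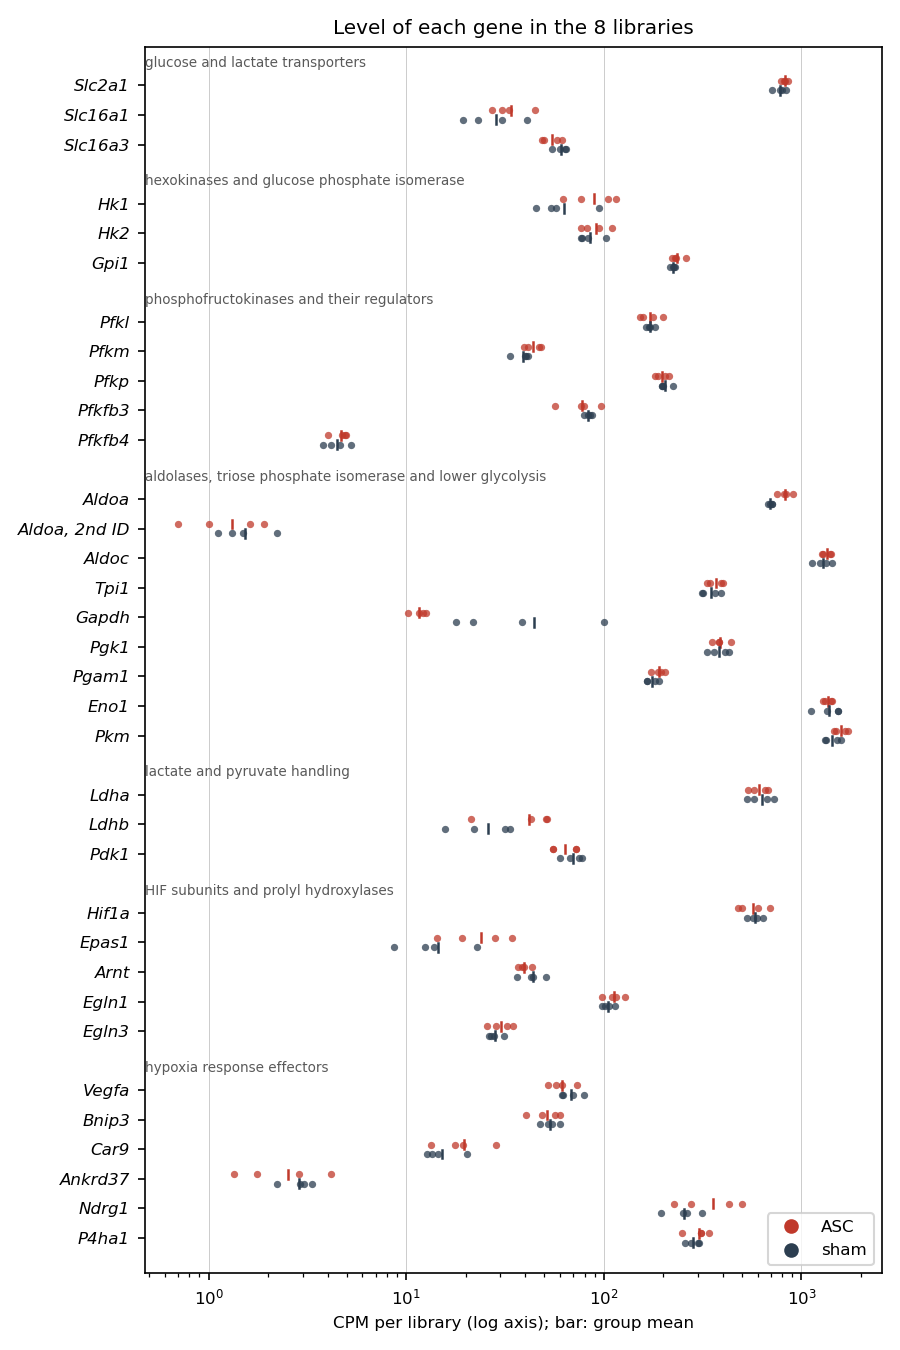
CPM on a log axis for each member in the 4 ASC libraries (red, upper points) and the 4 sham libraries (dark, lower points), with a bar at each group's mean. Aldoc, Eno1 and Pkm lie above 1000 CPM in both groups, Pfkfb4, Ankrd37 and the second Aldoa identifier lie below 10 CPM, and the groups stand apart only for Aldoa and Gapdh.

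Aldolase splits the 6-carbon sugar, and Aldoa (ENSMUSG00000030695) encodes its muscle-type, widely expressed form. Aldoa was read at 820, 906, 836 and 748 CPM in ASC 1 to 4 and at 706, 713, 691 and 676 CPM in sham 1 to 4. Every ASC library lay above every sham library, and the sham libraries were tightly grouped. The log2 fold change was 0.25 (SE 0.11, 95% interval 0.02 to 0.48), a 1.19-fold difference, with an edgeR adjusted p of 0.303. Over the alternatives run it ranged between 0.13 and 0.29, with adjusted p-values of 0.0686 to 0.687, and none of them called it. Its further identifier, ENSMUSG00000114515, had 0.701 to 1.90 CPM in ASC and 1.12 to 2.23 CPM in sham.

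Aldoc, the brain-type aldolase, had more reads than Aldoa, at 1411, 1400, 1277 and 1282 CPM in ASC and 1325, 1421, 1134 and 1242 CPM in sham (log2 fold change 0.07, SE 0.12, edgeR adjusted p = 0.837). Corrected for length the 2 aldolases were about equal: Aldoa supplied 52.5% ± 1.61 of their summed per-kilobase level in ASC and 49.5% ± 2.04 in sham, with overlapping libraries. Tpi1, triose phosphate isomerase, averaged 368 ± 33.7 CPM in ASC and 347 ± 38.3 CPM in sham (log2 fold change 0.08, edgeR adjusted p = 0.784).

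**Figure D3:**
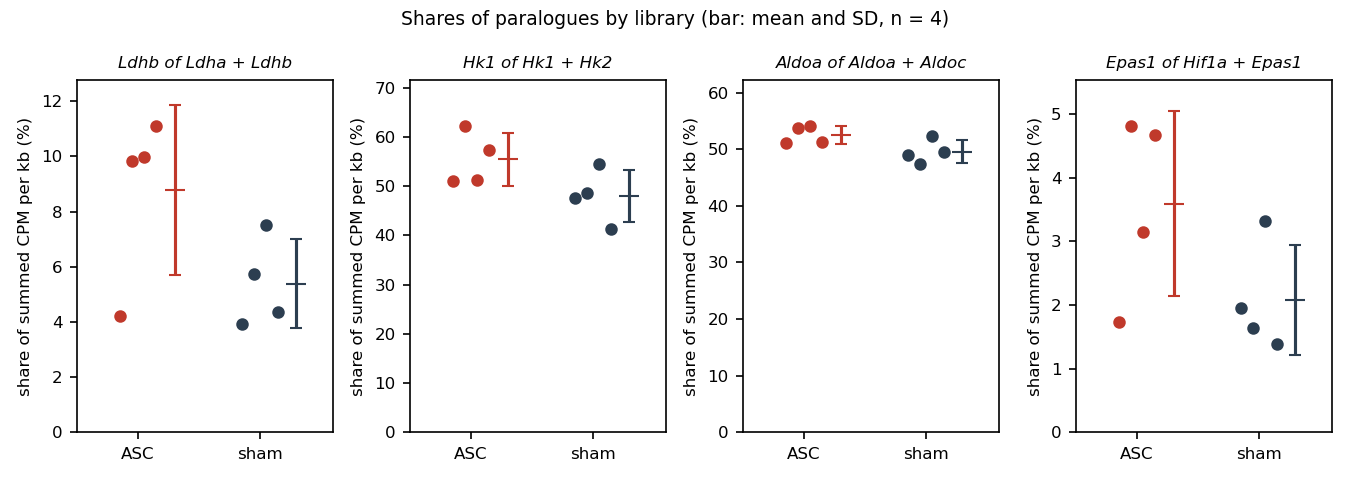
Share of each named gene in the summed CPM per kilobase of a gene pair, one point per library, with the mean and SD of 4 ASC (red) and 4 sham (dark) libraries. Ldhb averaged 8.79% in ASC and 5.38% in sham and Epas1 3.59% in ASC and 2.07% in sham, and all 4 pairs overlapped between the groups.

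Gapdh, glyceraldehyde 3-phosphate dehydrogenase, is often taken as a reference gene, and it had the widest interval of all members. It was read at 12.2, 10.2, 11.6 and 12.6 CPM in ASC 1 to 4 and at 17.9, 100, 38.5 and 21.7 CPM in sham 1 to 4. The ASC libraries were tightly grouped below all sham libraries, and sham 2 stood far above the other sham libraries. The log2 fold change was -1.94 (SE 0.59, 95% interval -3.36 to -0.53, edgeR adjusted p = 0.217). DESeq2 called the difference (log2 fold change -1.93, adjusted p = 0.0237), and without sham 2 it was -1.17 with an edgeR adjusted p of 0.109.

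Whether these Gapdh counts give the amount of its mRNA cannot be told. The table holds 116 genes that share sequence with it, called copies here, of which 114 are annotated pseudogenes, and 55.5% of its distinct 75-base stretches also occur in a copy. The copies took 1547, 751, 1243 and 1215 reads in ASC 1 to 4 and 1036, 1120, 1359 and 1143 reads in sham 1 to 4. The copy with the most reads, the pseudogene Gm7336, took 715, 56, 566 and 506 in ASC 1 to 4. In sham 1 to 4 Gm7336 took 315, 399, 627 and 487. Gapdh itself took 191, 188, 200 and 186 reads in ASC and 382, 2145, 794 and 291 reads in sham. It therefore held 11.0% to 20.0% of the joint reads in ASC and 20.3% to 65.7% in sham. With gene and copies summed, a setting added after the data were seen, the levels were 111, 51.0, 83.5 and 94.6 CPM in ASC and 66.4, 152, 104 and 107 CPM in sham. The summed levels overlapped between the groups, and the log2 fold change was -0.34 (SE 0.30, edgeR adjusted p = 0.667). All summed levels lay below those of Pgk1, the next enzyme, at 351 to 438 CPM in ASC and 332 to 429 CPM in sham. Per kilobase, Gapdh itself averaged 8.19 ± 0.725 CPM in ASC and 31.4 ± 26.9 in sham, against 213 and 210 for Pgk1. Whether the sum holds every Gapdh read is therefore not known. The sources used here do not say how reads matching several places were counted, and the part that copies play in the lower Gapdh reads was not tested beyond this sum.

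**Figure D4:**
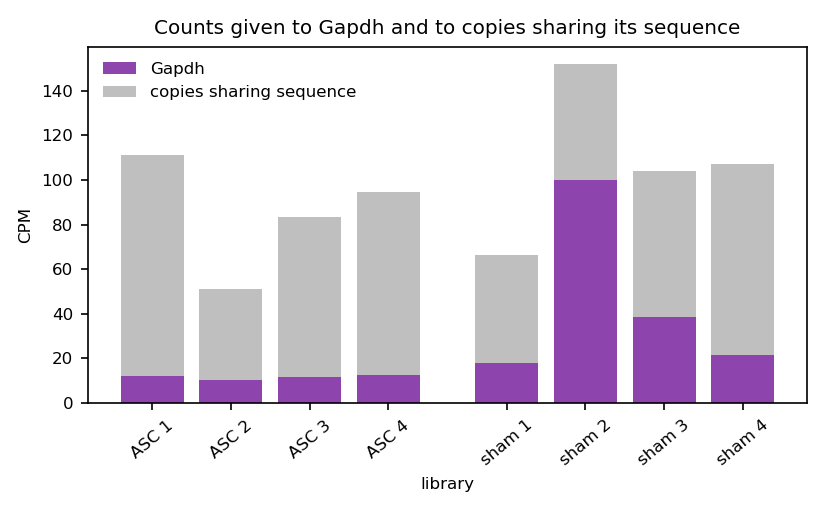
CPM assigned to Gapdh (purple) and to the genes sharing sequence with it (grey) in each of the 4 ASC and 4 sham libraries, stacked. Gapdh itself is at 10.2 to 12.6 CPM in ASC and 17.9 to 100 CPM in sham, while the sum is 51.0 to 111 CPM in ASC and 66.4 to 152 CPM in sham.

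The remaining enzymes of lower glycolysis share sequence with copies too, but summing those moved no fold change other than that of Gapdh by more than 0.01 on the log2 scale. Pgk1, phosphoglycerate kinase, with 67.5% of its 75-base stretches shared, had 438, 382, 384 and 351 CPM in ASC and 363, 409, 332 and 429 CPM in sham (log2 fold change 0.02, SE 0.12, edgeR adjusted p = 0.956). Pgam1, phosphoglycerate mutase, with 40.6% shared, averaged 190 ± 12.7 CPM in ASC and 176 ± 12.8 CPM in sham (log2 fold change 0.11, edgeR adjusted p = 0.647). Eno1, with 44.3% shared, had 1432, 1281, 1309 and 1416 CPM in ASC and 1123, 1534, 1348 and 1533 CPM in sham. The sham libraries spanned the whole ASC range, and the log2 fold change was -0.03 (95% interval -0.31 to 0.26, edgeR adjusted p = 0.952). Pkm, which makes pyruvate and ATP in the last step, had 1729, 1669, 1456 and 1499 CPM in ASC and 1314, 1508, 1326 and 1580 CPM in sham (log2 fold change 0.15, SE 0.12, edgeR adjusted p = 0.625). Its M1 and M2 splice forms cannot be separated in gene counts.

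Pyruvate is either reduced to lactate or oxidised in mitochondria. Ldha, encoding the lactate dehydrogenase subunit that favours lactate formation and a classic HIF target, was read at 676, 651, 536 and 573 CPM in ASC 1 to 4 and at 532, 729, 578 and 673 CPM in sham 1 to 4. The groups overlapped over most of their range (log2 fold change -0.04, 95% interval -0.33 to 0.24, edgeR adjusted p = 0.914). Ldhb, encoding the heart-type subunit, had 21.4, 51.0, 42.6 and 51.5 CPM in ASC 1 to 4 and 15.7, 31.8, 33.7 and 22 CPM in sham 1 to 4. ASC 1 fell among the sham libraries, and the other 3 ASC libraries lay above all of them (log2 fold change 0.69, SE 0.34, 95% interval -0.11 to 1.49, edgeR adjusted p = 0.411). Ldha was the main form in every library: Ldhb made up 4.23%, 9.84%, 9.96% and 11.1% of the summed per-kilobase level in ASC 1 to 4 and 3.94%, 5.72%, 7.51% and 4.36% in sham 1 to 4. Pdk1, the HIF-induced kinase that shuts the pyruvate dehydrogenase complex, averaged 63.9 ± 9.81 CPM in ASC and 69.7 ± 7.94 CPM in sham (log2 fold change -0.13, SE 0.12, edgeR adjusted p = 0.694).

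HIF alpha subunits carry the oxygen signal to DNA. Hif1a, the widely expressed alpha subunit, was read at 696, 477, 502 and 602 CPM in ASC 1 to 4 and at 599, 638, 570 and 532 CPM in sham 1 to 4. ASC libraries held both the highest and the lowest value (log2 fold change -0.04, 95% interval -0.33 to 0.25, edgeR adjusted p = 0.930). Epas1, encoding HIF-2 alpha, which is best known from endothelium, had 14.3, 28.2, 19.1 and 34.4 CPM in ASC 1 to 4 and 13.9, 12.4, 22.9 and 8.71 CPM in sham 1 to 4. The groups overlapped through ASC 1, ASC 3 and sham 3 (log2 fold change 0.72, SE 0.36, 95% interval -0.12 to 1.56, edgeR adjusted p = 0.411). Hif1a supplied 96.4% ± 1.45 of the summed per-kilobase level of both alpha subunits in ASC and 97.9% ± 0.863 in sham. Arnt, the stable partner, had 38.5, 36.7, 43.2 and 39.3 CPM in ASC and 51.1, 43.9, 43.0 and 36.4 CPM in sham (log2 fold change -0.15, SE 0.11, edgeR adjusted p = 0.574).

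The prolyl hydroxylases overlapped between the groups in level and in ratio. Egln1, encoding PHD2, the main oxygen sensor of most cells, averaged 113 ± 12.8 CPM in ASC and 105 ± 7.09 CPM in sham (log2 fold change 0.11, 95% interval -0.11 to 0.32, edgeR adjusted p = 0.681). Egln3, encoding PHD3 and itself a HIF target, had 32.2, 34.6, 28.6 and 25.7 CPM in ASC and 27.9, 31.2, 26.3 and 27.0 CPM in sham (log2 fold change 0.11, edgeR adjusted p = 0.709). Egln1 made up 73.4% ± 0.608 of their summed per-kilobase level in ASC and 73.4% ± 1.5 in sham.

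HIF binds a short core, ACGTG or GCGTG, and RefSeq promoter windows of GRCm38.p6, 250 bases before to 50 after the start of a transcript, were searched for both on either strand. A window was found for 31 of the 33 symbols, and 29 of those 31 genes (93.5%) held a match in at least 1 window, against 12628 of 27025 genes with a window (46.7%). By window the shares were 37 of 45 (82.2%) for members and 14380 of 32851 (43.8%) for all windows. Members were chosen by name and include known HIF targets, and the genes with a window were not limited to those read here. The shares are therefore a description and not a test. Gpi1 and Tpi1 had no match in these letters. The windows of 4 HIF targets are shown because their transcripts are usual readouts of HIF activity. They are those of Ldha at chr7:46845554-46845853 on the plus strand, Bnip3 at chr7:138909457-138909756 on the minus strand, Ankrd37 at chr8:45999801-46000100 on the minus strand and Car9 at chr4:43506776-43507075 on the plus strand. Capitals mark the matches, a reverse-strand match being read as CACGT or CACGC, and neighbouring or overlapping matches run together:
Ldha promoter: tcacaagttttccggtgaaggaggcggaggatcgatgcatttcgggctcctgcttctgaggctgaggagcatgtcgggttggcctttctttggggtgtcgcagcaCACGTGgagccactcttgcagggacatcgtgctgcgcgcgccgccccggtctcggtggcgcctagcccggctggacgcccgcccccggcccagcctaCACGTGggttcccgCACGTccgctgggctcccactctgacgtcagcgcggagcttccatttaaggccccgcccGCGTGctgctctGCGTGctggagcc
Bnip3 promoter: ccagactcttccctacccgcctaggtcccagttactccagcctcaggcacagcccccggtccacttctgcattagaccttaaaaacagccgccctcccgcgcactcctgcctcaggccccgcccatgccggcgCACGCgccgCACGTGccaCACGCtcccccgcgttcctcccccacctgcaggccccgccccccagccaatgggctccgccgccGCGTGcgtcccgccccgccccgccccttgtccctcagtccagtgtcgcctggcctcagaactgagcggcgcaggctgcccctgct
Ankrd37 promoter: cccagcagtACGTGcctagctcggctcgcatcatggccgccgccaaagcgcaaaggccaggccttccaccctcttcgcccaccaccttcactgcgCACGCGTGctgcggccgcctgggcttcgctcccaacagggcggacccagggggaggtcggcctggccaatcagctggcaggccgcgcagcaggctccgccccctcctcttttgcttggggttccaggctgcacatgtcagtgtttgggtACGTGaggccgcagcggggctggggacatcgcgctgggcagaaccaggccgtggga
Car9 promoter: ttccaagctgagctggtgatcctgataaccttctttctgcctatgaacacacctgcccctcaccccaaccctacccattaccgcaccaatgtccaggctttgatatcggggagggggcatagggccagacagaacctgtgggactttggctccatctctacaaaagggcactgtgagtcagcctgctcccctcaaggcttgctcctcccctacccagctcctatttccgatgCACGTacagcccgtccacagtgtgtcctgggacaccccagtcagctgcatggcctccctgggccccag
The Ldha window held 7 matches with 2 overlapping pairs, Bnip3 had 5 with 1 overlapping pair, Ankrd37 had 4 with 1 overlapping pair, and Car9 had 1. Ldha has 2 windows, of which the window with more matches is shown, and the other held 2. A match is a string of letters and does not show that a factor was bound in these samples.

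The genes with these promoters had overlapping levels in ASC and sham, Ldha as given above. Bnip3, encoding a mitophagy receptor, was read at 60.0, 48.4, 56.6 and 40.6 CPM in ASC 1 to 4 and at 51.9, 54.4, 47.3 and 60.2 CPM in sham 1 to 4. ASC 4 was the lowest library, and the other ASC libraries lay within the sham range (log2 fold change -0.06, 95% interval -0.33 to 0.22, edgeR adjusted p = 0.884). Ankrd37, a small ankyrin-repeat gene that responds strongly to hypoxia in many cell types, was near the lower end of detection, with 1.34, 2.88, 4.17 and 1.75 CPM in ASC and 3.04, 2.90, 3.34 and 2.23 CPM in sham. At this depth the interval was wide, -0.92 to 0.56 around a log2 fold change of -0.18 (edgeR adjusted p = 0.851). Car9, encoding carbonic anhydrase 9, a pH-regulating enzyme of the cell surface and a common hypoxia marker, had 19.3, 28.4, 17.7 and 13.4 CPM in ASC 1 to 4 and 20.2, 14.5, 13.5 and 12.7 CPM in sham 1 to 4. ASC 2 was the highest library, sham 1 lay above 3 ASC libraries, and the log2 fold change was 0.37 (SE 0.23, 95% interval -0.14 to 0.88, edgeR adjusted p = 0.496).

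The other effectors were also uncalled. Vegfa, the angiogenic growth factor, had 57.5, 73.1, 61.6 and 52.2 CPM in ASC and 79.7, 61.2, 70.2 and 62.1 CPM in sham (log2 fold change -0.16, 95% interval -0.42 to 0.10, edgeR adjusted p = 0.584). Sham 1 was the highest and ASC 4 the lowest library for Vegfa. P4ha1, a collagen prolyl 4-hydroxylase subunit, averaged 302 ± 39.4 CPM in ASC and 284 ± 21.3 CPM in sham (log2 fold change 0.09, edgeR adjusted p = 0.762). Ndrg1, a stress- and differentiation-responsive gene, had 498, 226, 429 and 275 CPM in ASC 1 to 4 and 264, 195, 251 and 313 CPM in sham 1 to 4. ASC 1 and ASC 3 lay above all sham libraries and ASC 2 and ASC 4 among them (log2 fold change 0.48, SE 0.26, 95% interval -0.10 to 1.06, edgeR adjusted p = 0.432).

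For 4 of the members with wide intervals, chosen after their values were seen, levels are set beside the markers of other eye tissues. Slc16a1, Car9, Ankrd37, Gapdh and the little-read Aldoa identifier, also outside the 1.5-fold range, were not compared in this way. For Hk1, Ldhb and Epas1 the highest ASC libraries were ASC 2 and ASC 4, where retinal markers summed to 3723 and 4070 CPM, and ASC 1 was the lowest, at 2200 CPM of retinal markers. ASC 3, with 4207 CPM of retinal markers, lay between them for all 3 genes. In the sham group sham 3 was the highest for all 3 genes, and it had 4673 CPM of retinal markers against 1221, 1554 and 2315 CPM in sham 1, sham 2 and sham 4. For Ldhb, however, sham 2 at 31.8 CPM was close to sham 3 at 33.7 CPM. Sham 3 also had the most pigment cell markers of the sham libraries, 264 CPM, and ASC 4 the most of all, 714 CPM. Macrophage and leukocyte markers ranked the libraries as Ldhb did within each group. They summed to 62.3, 201, 193 and 234 CPM in ASC 1 to 4 and 34.5, 78.6, 106 and 51.7 CPM in sham 1 to 4. Endothelial and pericyte markers summed to 134, 146, 146 and 156 CPM in ASC 1 to 4 and 181, 155, 184 and 139 CPM in sham 1 to 4. Their sums were thus not higher in ASC, whereas Epas1 had a positive fold change. Ndrg1 was highest in ASC 1, ASC 3 and sham 4, the libraries in which lens fibre markers were also highest, at 367944, 351157 and 326692 CPM. The part of these tissues and cells in the levels of Hk1, Ldhb, Epas1 and Ndrg1 was not tested.

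**Figure D5:**
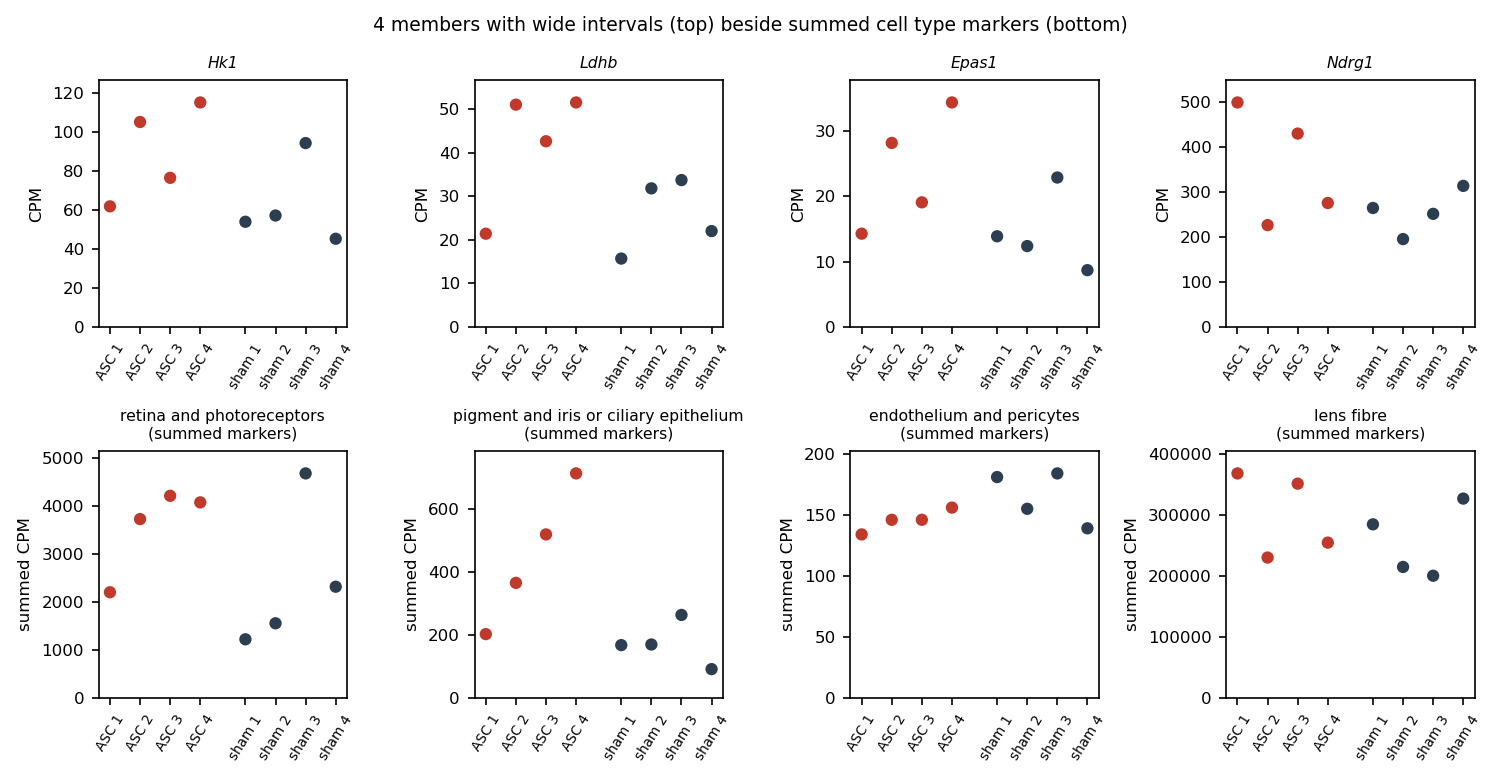
CPM of Hk1, Ldhb, Epas1 and Ndrg1 (upper panels) and summed CPM of retinal, pigment cell, endothelial and lens fibre markers (lower panels) in each of the 4 ASC (red) and 4 sham (dark) libraries. ASC 2, ASC 4 and sham 3 are high for Hk1 and Epas1, and ASC 1, ASC 3 and sham 4 are high for Ndrg1 and for the fibre markers.

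Beyond the members, 145 further genes from 7 lists of neighbouring pathways were tested in the same fit, of 156 in the table. Of the 145, 1 was called higher in ASC, beside 0.631% of all tested genes, and 1 lower, beside 0.391%, and their median log2 fold change was 0.042. Unadjusted p-values under 0.05 were reached by 27 (18.6%, against 14.7% of all tested genes), and 15 (10.3%, against 9.06%) did not overlap, 7 with ASC above and 8 with ASC below. DESeq2 called 7 higher and 2 lower, beside 593 of all 15857 tested genes in either direction. Limma-voom called 1 higher and 1 lower, beside 173 of all tested genes.

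Among 40 other HIF targets tested, 9 (22.5%, against 14.7% of all tested genes) reached an unadjusted p under 0.05. Groups did not overlap for 7 (17.5%, against 9.06%), 5 with ASC above and 2 with ASC below. Bhlhe40, encoding a stress- and clock-linked transcriptional repressor, was the called gene. It had 97.4, 74.8, 113 and 104 CPM in ASC 1 to 4 and 36.1, 30.1, 53.1 and 24.8 CPM in sham 1 to 4. Every ASC library lay above every sham library, and Bhlhe40 rose by 1.43 on the log2 scale (SE 0.23, edgeR adjusted p = 0.0327). It lost the call without ASC 1, ASC 3, ASC 4, sham 1 or sham 2 (edgeR adjusted p up to 0.109) and with scaling by library totals alone. Among further genes called by DESeq2 were Car12 and Hmox1, named here after their values were seen. Car12 had 5.15 to 17.9 CPM in ASC and 1.12 to 3.83 CPM in sham, without overlap (log2 fold change 1.81, SE 0.50, edgeR adjusted p = 0.15). Hmox1, heme oxygenase 1, had 306, 28.6, 161 and 134 CPM in ASC 1 to 4 and 12.6, 10.5, 26.4 and 42.1 CPM in sham 1 to 4. Its log2 fold change was 2.79 (SE 0.81, edgeR adjusted p = 0.203). Macrophage and leukocyte markers summed to 62.3, 201, 193 and 234 CPM in ASC 1 to 4 and 34.5, 78.6, 106 and 51.7 CPM in sham 1 to 4. Red cell markers summed to 310, 124, 76.3 and 373 CPM in ASC and 62.8, 64.7, 41.6 and 52.3 CPM in sham. The part of red cells, macrophages or other cells in the Hmox1 level was not tested. By mean CPM over all 8 libraries the most read of these targets were the mitophagy receptor Bnip3l, with 414 ± 68.7 CPM in ASC and 421 ± 36.5 CPM in sham, and P4ha2, a collagen prolyl 4-hydroxylase subunit. P4ha2 averaged 139 ± 8.83 CPM in ASC and 166 ± 6.67 CPM in sham without overlap between the groups (log2 fold change -0.25, edgeR adjusted p = 0.205).

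The 24 other regulators of the HIF pathway held 0 genes called by edgeR or limma-voom, and 8 (33.3%, against 14.7% of all tested genes) reached an unadjusted p under 0.05. By mean CPM the most read were the chaperone Hsp90ab1, with 1156 ± 203 CPM in ASC and 897 ± 66.0 CPM in sham (log2 fold change 0.36, edgeR adjusted p = 0.253), and the scaffold protein gene Rack1, with 565 ± 81.9 CPM in ASC and 474 ± 68.9 CPM in sham. Hif1an, Vhl, Cited2 and Siah1a were the 4 (16.7%, against 9.06% of all tested genes) whose groups did not overlap and are named after their values were seen. Hif1an, encoding the asparaginyl hydroxylase FIH that blunts HIF activity, had 31.6, 33.6, 31.5 and 33.3 CPM in ASC and 37.6, 41.5, 43.8 and 39.3 CPM in sham (log2 fold change -0.32, SE 0.08, edgeR adjusted p = 0.1). Siah1a, a ubiquitin ligase that targets prolyl hydroxylases, averaged 22.1 ± 1.43 CPM in ASC and 15.8 ± 2.47 CPM in sham (log2 fold change 0.48, edgeR adjusted p = 0.0917). DESeq2 called both Hif1an and Siah1a. Vhl, the ubiquitin ligase subunit that recognises hydroxylated HIF alpha, averaged 45.2 ± 4.11 CPM in ASC and 54.0 ± 3.88 CPM in sham (log2 fold change -0.26, edgeR adjusted p = 0.234). Cited2, a competitor of HIF for its coactivator, averaged 46.5 ± 6.65 CPM in ASC and 60.0 ± 2.23 CPM in sham (log2 fold change -0.37, edgeR adjusted p = 0.124).

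Other isoforms of glycolytic enzymes and transporters, 19 of 24 tested, held 0 called genes in edgeR and limma-voom. DESeq2, which called 593 of all 15857 tested genes, called 2 of the 19. An unadjusted p under 0.05 was reached by 2 (10.5%, against 14.7% of all tested genes). Eno3, muscle enolase, averaged 127 ± 31.6 CPM in ASC and 131 ± 23.0 CPM in sham, and Bpgm, the bisphosphoglycerate mutase known best from red cells, 57.0 ± 3.59 CPM in ASC and 52.4 ± 5.30 CPM in sham. The DESeq2 calls were Pgam2 and Slc16a8, both named after their values were seen. Slc16a8, encoding the lactate transporter MCT3 of the retinal pigment epithelium, had 12.8, 19.8, 10.7 and 35.2 CPM in ASC 1 to 4 and 7.86, 7.80, 4.89 and 2.90 CPM in sham 1 to 4 (log2 fold change 1.72, SE 0.47, edgeR adjusted p = 0.156). Pigment cell markers summed to 203, 366, 520 and 714 CPM in ASC and 168, 170, 264 and 91.7 CPM in sham, and their part in the Slc16a8 level was not tested. Pgam2, muscle phosphoglycerate mutase, averaged 27.9 ± 5.72 CPM in ASC and 15.5 ± 4.86 CPM in sham with overlapping libraries (log2 fold change 0.85, edgeR adjusted p = 0.112).

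The routes that lead away from glycolysis held 1 called gene, beside 1.02% of all tested genes called in either direction. All 20 citric acid cycle genes had intervals within a 1.5-fold change (100%, against 51.3% of all tested genes), with log2 fold changes of -0.08 to 0.23. Of them 0 were called by edgeR, DESeq2 or limma-voom and 0 reached an unadjusted p under 0.05 (against 14.7% of all tested genes). Malate dehydrogenase Mdh1 averaged 168 ± 11.3 CPM in ASC and 161 ± 14.7 CPM in sham, and the succinate dehydrogenase subunit Sdha 149 ± 9.42 CPM in ASC and 144 ± 5.66 CPM in sham. The 13 genes of pyruvate entry and the pyruvate dehydrogenase complex held 0 calls by any of the 3 tools. Of their unadjusted p-values, 2 were under 0.05 (15.4%, against 14.7% of all tested genes). Pdk2, a kinase of that complex, averaged 73.8 ± 8.55 CPM in ASC and 71.2 ± 4.08 CPM in sham, and its subunit Pdhb 69.2 ± 3.38 CPM in ASC and 65.0 ± 3.21 CPM in sham. Among 12 genes of the pentose phosphate and polyol pathways there were 0 calls by any of the 3 tools. Unadjusted p-values under 0.05 numbered 3 (25%, against 14.7% of all tested genes). Transketolase (Tkt) averaged 1590 ± 239 CPM in ASC and 1470 ± 159 CPM in sham, and the aldose reductase Akr1b3, which makes sorbitol in the lens, 170 ± 30.2 CPM in ASC and 164 ± 24.8 CPM in sham. Of 23 glycogen and gluconeogenesis genes tested, Ppp1r3c, which brings protein phosphatase 1 to glycogen, was the called gene, at 4.40, 5.05, 6.19 and 5.40 CPM in ASC and 14.7, 12.8, 9.98 and 12.1 CPM in sham. It fell by 1.23 on the log2 scale (SE 0.17, edgeR adjusted p = 0.00411) and kept its call when any single library was left out.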

How the data were processed

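RNA was measured in 4 ASC and 4 sham lens capsule libraries. The authors deposited 1 table of raw read counts per gene. Per the submitters' processing notes, HISAT2 2.0.5 and featureCounts 1.5.0-p3 were used with CASAVA and fastp. The sources used here do not give the genome build, strand setting or handling of reads with several matches, and overlapping genes and copies may share reads.

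Identifiers were matched to symbols for 54409 of 54532. Counts were fitted in edgeR 4.0.16 (R 4.3.3; filterByExpr, TMM scaling, robust quasi-likelihood F test, no covariate), with Benjamini-Hochberg adjustment over the 15857 tested genes and a threshold of 0.05. The 95% intervals used the SE and the degrees of freedom of that test. Levels are counts per 1000000 (CPM) on TMM-scaled totals. Library totals were 14420494 to 21141582 counts. The SEs reflect the spread between libraries as well as the counting of reads, and reads are not molecules. Lengths and copies came from GENCODE M21 transcripts: a copy was an annotated pseudogene sharing a 75-base stretch with a member, or another gene sharing at least 10% of its stretches.

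Members and gene lists were chosen with earlier results of these data known. All members are named; from each other list up to 4 called genes are named, or else the 1 or 2 with the highest mean CPM. The fit was checked on simulated counts. Alternatives were DESeq2 1.42.0, limma-voom (limma 3.58.1), other scalings and filters, the replicate number as a block, a fit without robust estimation, and each library left out. Summing copies was chosen after seeing the data. A result for 1 listed gene is not reported here.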

Additional observations from a re-analysis of the deposited data

Results flagged for a closer look

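Pfkp in sham 3, at 223 CPM, stood apart from the other 3 sham libraries, which lay at 196 to 199 CPM, by more than a test for a single distant value in 4 libraries allows (Dixon's gap test at 95%). This was 1 of 68 groups of 4 libraries looked at, and chance marks about 1 in 20. The ASC libraries had 182 to 213 CPM.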

How the results depend on the processing

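No member was called higher in ASC under any alternative. The count of members called lower was 1 with DESeq2 (Gapdh) and 0 under all others. Of 646 member values over 19 alternatives, 38 changed sign, in 19 members whose log2 fold change was at most 0.22 in size. Scaling by library totals alone gave 12 of those and moved the members' median to -0.051, with the median of all genes at -0.116. The median was 0.034 to 0.08 with a library left out. The count over all genes, 162, became 593 with DESeq2, 712 without a low-count filter, 44 at an adjusted p of 0.01 and 56 to 228 with a library left out. Among other pathway genes the count called higher, 1, became 7 with DESeq2, 5 without the filter, 0 with library totals alone, 0 at an adjusted p of 0.01 and 0 to 2 with a library left out. The count called lower, 1, became 2 with DESeq2 and 2 without the filter. The causes of these shifts were not tested. Same-numbered libraries deviated together only weakly (r = 0.217, 0.0573, 0.214 and -0.0897), and 1 of 4 ASC libraries correlated best with its own number, so the numbers were not taken as pairs. The replicate block called 169 genes in all, 0 members, and 3 other pathway genes higher. Ankrd37, with few reads, has an interval that reaches past 1.5-fold.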
